A study of Mus musculus with 8 samples.

Results

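The 33 genes described here encode the transcription factor NRF2 and its regulators and the enzymes of glutathione, thioredoxin, detoxification and NADPH metabolism. They were named by symbol in a list of these pathways that sets no threshold on measured values, out of 55450 gene identifiers counted. This list and the further lists below were chosen with earlier results of these data known. Counts of calls on them are descriptions and no independent test. Of the 33 genes 32 had enough counts to be tested, among 14641 tested genes in all, and Gstt1 did not. The cells were PyMT-1099, a mouse breast cancer line from a tumour driven by the polyoma middle T antigen, and their polyadenylated RNA was sequenced in the parental line and in an Agps knockout line. The product of Agps makes ether lipids in peroxisomes. The 4 groups of 2 libraries were knockout cells given TGF-β (2 ng/ml, 10 days), untreated knockout cells, parental cells given the same TGF-β, and untreated parental cells. They are called treated and untreated knockout and parental cells here. All groups grew in the same serum-containing medium. Whether both libraries of a group were grown as separate cultures is not stated in the labels, so a p-value here reflects library-to-library spread alone, and that spread may be technical. All knockout libraries carry 1 line name, and whether that line is a single clone is not given in the sources used here, so loss of Agps and any other difference between the lines cannot be told apart.

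NRF2 is held at a low level by KEAP1, which hands it to a ubiquitin ligase. When electrophiles or oxidants modify KEAP1, NRF2 builds up, pairs with small MAF proteins and binds antioxidant response elements in the promoters and enhancers of its targets, where BACH1 can compete as a repressor. Its targets make glutathione from glutamate, cysteine and glycine, keep glutathione and thioredoxin reduced with NADPH, join glutathione to reactive compounds and pump the products out of the cell. TGF-β is a cytokine that drives epithelial cells towards a mesenchymal state, and these genes were followed through that change in both lines.

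Library totals ran from 17007268 to 21311831 counts. Levels are given for each library, replicate 1 first, as CPM after TMM scaling, that is as counts brought to a common library size. Agps (ENSMUSG00000042410, chr2:75832177-75931350, plus strand) stood at 43.9 and 35.6 CPM in treated and 32.9 and 29.3 CPM in untreated knockout cells. Parental Agps stood at 265 and 266 CPM with TGF-β and 357 and 329.8 CPM without it. The knockout libraries were lower than both parental groups, with log2 fold changes of -3.47 (SE 0.12, adjusted p = 5.44e-08) without and -2.74 (SE 0.11, adjusted p = 2.62e-07) with TGF-β. Among 4 epithelial markers, Krt8, Krt18 and Cdh1 were present in all 8 libraries and Epcam had 0 counts in each. Their summed level was 3095 to 3288 CPM in treated knockout, 3104 to 3246 CPM in untreated knockout, 2795 to 2954 CPM in treated parental and 4177 to 4574 CPM in untreated parental libraries. The 4 endothelial markers summed to 6.71 to 8.24 CPM in treated knockout, 0.557 to 0.773 CPM in untreated knockout, 76.5 CPM in treated parental and 1.29 to 1.58 CPM in untreated parental libraries. In treated libraries nearly all of this was Cdh5; Kdr had at most 5 counts and Tie1 at most 2 in any library. The 5 immune markers summed to 47.5 to 48.8 CPM in treated knockout, 48.9 to 50.4 CPM in untreated knockout, 58.6 to 60.1 CPM in treated parental and 62.3 to 68.1 CPM in untreated parental libraries. Ptprc, which defines blood cells, had at most 5 counts in a library. Nearly all of the immune sum thus came from the other markers of that list, Cd68, Cd14, Lyz2 and Csf1r, whose levels are not given singly here. The 3 adipocyte markers summed to at most 0.222 CPM. In each group, replicate 2 held the higher level for most of the 32 tested genes described here, namely 24 in treated knockout, 31 in untreated knockout, 20 in treated parental and 27 in untreated parental cells. Over all tested genes that share was 48.4% to 50.8%. Mitochondrially encoded genes took 2.36% to 3.80% of counts in the replicate 2 libraries and 3.37% to 4.31% in the replicate 1 libraries, and less in replicate 2 of every group. The part of these differences in the results below was not tested.

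After TGF-β most of these genes were lower in both lines, among them the regulator Nfe2l2, the glutathione enzymes Gclc, Gss and Gsr, and all 5 enzymes that supply NADPH. In knockout cells 19 of the 32 tested genes fell, where 20.6% of all tested genes were called lower, and 1 rose, where 20.9% were called higher. In parental cells 25 fell, where 21.2% of all tested genes were called lower, and 1 rose, where 21.3% were called higher. A gene is called where the adjusted p of the edgeR quasi-likelihood test, corrected over all tested genes, is under 0.05. The median log2 change of the 32 genes was -0.63 in knockout cells and -1.04 in parental cells, and that of all tested genes lay within 0.01 of 0 in both. The 19 genes that fell in knockout cells also fell in parental cells, where they were 19 of the 25. How far such calls overlap between the lines over all tested genes was not counted. Those called in parental cells alone were Keap1, Srxn1, Prdx6, Mgst2, Blvrb and Abcc1, and for none of these 6 did the difference between the lines pass its own test in this fit (adjusted p from 0.222 to 0.957). With no filter on low counts the difference passed for Blvrb (0.88, adjusted p = 0.0235) and Srxn1 (0.53, adjusted p = 0.0275), and with the replicate number as a block for Blvrb (0.86, adjusted p = 0.0255). The genes called in neither line were Bach1, Gclm, Txn1, Txnrd1, Gstp1 and Cbr1. Summed over all 33 genes, the level was 4844 and 5111 CPM in treated knockout, 6724 and 8097 CPM in untreated knockout, 4572 and 4577 CPM in treated parental and 7787 and 8959 CPM in untreated parental libraries, so that in each line both treated libraries lay below both untreated ones. In RNA from whole cultures, fewer cells of a type and less RNA per cell cannot be told apart.

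**Figure D1:**
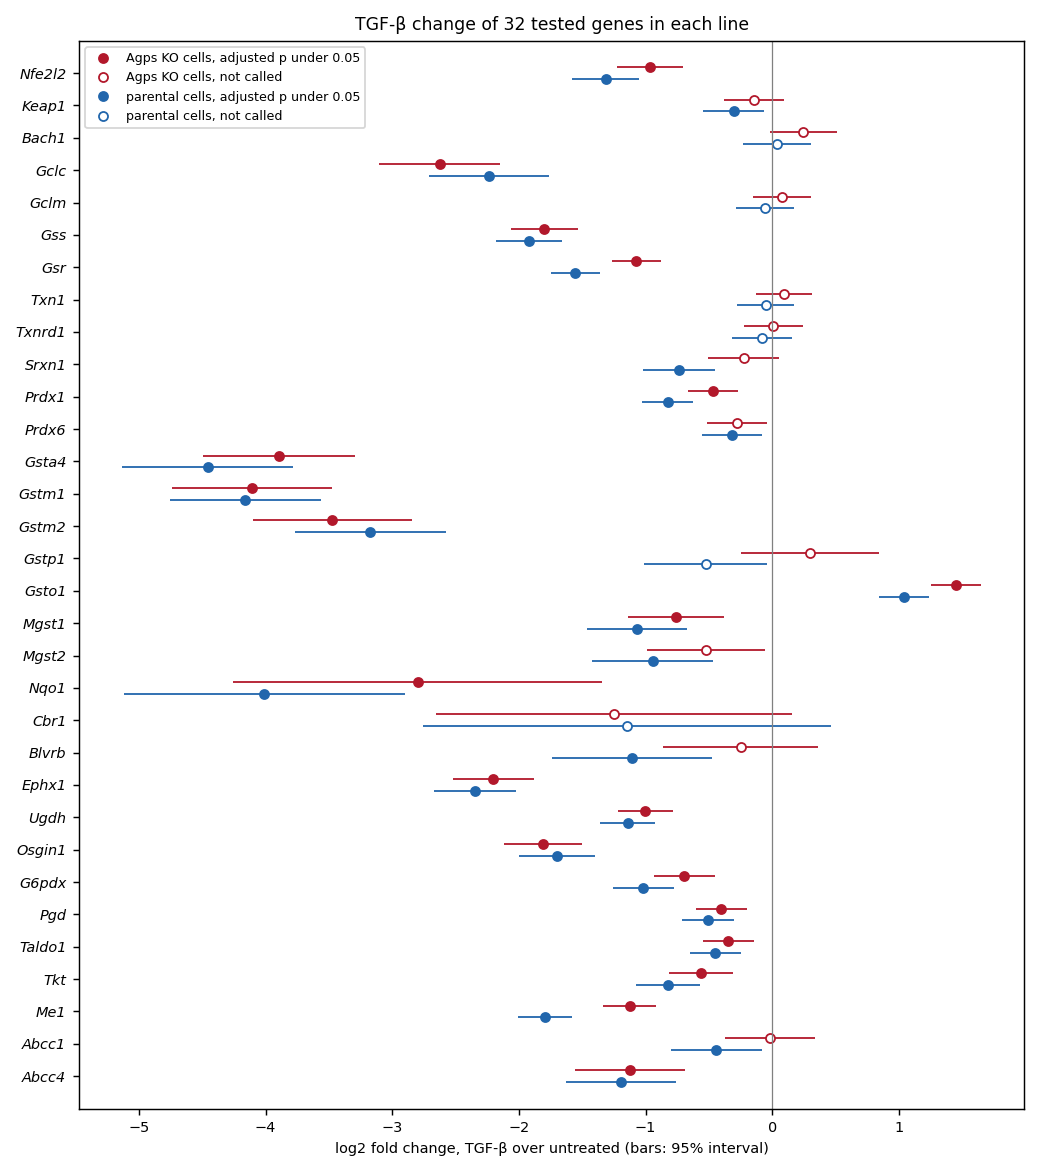
Fitted log2 fold change of TGF-β over untreated cells for each of the 32 tested genes, with knockout cells in red above parental cells in blue; bars are 95% intervals, filled points passed an adjusted p of 0.05 and open points did not. Gsto1 is the single gene to the right of 0 in both lines with filled points, and Gsta4, Gstm1, Gstm2, Nqo1, Gclc and Ephx1 lie furthest to the left.

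Promoter sequences of the 33 genes were read to show the element that NRF2 is known to bind. The stretches printed below were picked from windows that hold a match. They are of genes that fell in both lines and of a pair called in neither. RefSeq promoter windows of 300 bases (GRCm38.p6, 250 before to 50 after a start site) were available for 28 of the 33 genes; none was used for Abcc1, Gsr, Gsta4, Prdx6 and Gclc. The core of the antioxidant response element, TGACNNNGC on either strand, was found in a window of 11 of the 28 genes (39.3%), against 14.0% of 27025 genes with a window. By window it was 12 of 36 (33.3%) against 12.4% of 32851. Of the 11 genes with a match, 8 fell with TGF-β in knockout cells and 9 in parental cells. Over all tested genes 20.6% fell in knockout and 21.2% in parental cells. Of 16 tested genes with a window and no match, 8 fell in knockout cells and 11 in parental cells, so genes of both kinds fell. The same counts were not made over all genes with and without a match. A match is a description of letters and does not show that NRF2 binds there. The stretches below run from 150 bases before to 10 after the start site, 5′ to 3′ on the strand of the gene, with matches to the core or its reverse complement in capitals. Me1 (chr9:86695905-86696064, minus strand), Ugdh (chr5:65435833-65435992, minus strand), G6pdx (chrX:74428871-74429030, minus strand) and Prdx1 (chr4:116685449-116685608, plus strand) fell with TGF-β in both lines, while Gclm (chr3:122245407-122245566, plus strand) and Txnrd1 (chr10:82859056-82859215, plus strand) were called in neither. The windows of G6pdx and Txnrd1 lie wholly inside the gene's span, at a start site downstream of its outer end. The start sites used for Me1, Ugdh and Prdx1 also lie a short way inside the span, and that of Gclm is at its outer end.
Me1: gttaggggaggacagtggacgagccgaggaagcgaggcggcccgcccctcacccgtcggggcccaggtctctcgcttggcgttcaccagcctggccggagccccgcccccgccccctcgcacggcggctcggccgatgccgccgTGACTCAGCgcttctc
Ugdh: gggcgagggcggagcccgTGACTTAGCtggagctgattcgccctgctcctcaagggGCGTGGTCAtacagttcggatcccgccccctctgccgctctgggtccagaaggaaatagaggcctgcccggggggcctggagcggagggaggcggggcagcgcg
G6pdx: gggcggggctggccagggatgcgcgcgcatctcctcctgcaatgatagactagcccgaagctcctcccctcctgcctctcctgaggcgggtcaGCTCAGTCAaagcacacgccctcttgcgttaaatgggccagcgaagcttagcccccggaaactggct
Prdx1: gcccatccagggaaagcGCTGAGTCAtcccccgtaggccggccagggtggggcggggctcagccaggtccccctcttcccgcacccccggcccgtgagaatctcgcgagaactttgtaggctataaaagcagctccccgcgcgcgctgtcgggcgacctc
Gclm: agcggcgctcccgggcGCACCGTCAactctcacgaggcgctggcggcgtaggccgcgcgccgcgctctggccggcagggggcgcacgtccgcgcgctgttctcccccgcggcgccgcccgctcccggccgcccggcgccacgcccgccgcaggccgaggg
Txnrd1: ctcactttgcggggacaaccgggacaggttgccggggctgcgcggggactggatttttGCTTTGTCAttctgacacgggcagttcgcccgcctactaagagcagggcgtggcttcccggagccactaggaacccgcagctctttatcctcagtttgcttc
Counted from the start site as base 1 with no base 0, the match in Me1 spans the start site, from base -6 to base 3, and that in Prdx1 runs from -133 to -125. Both matches read TGACTCAGC, on the gene's strand in Me1 and on the opposite strand in Prdx1, and so also hold the AP-1 site TGACTCA, which is bound by the JUN and FOS families. Ugdh holds a pair of matches, at -132 to -124 and -94 to -86. The matches of G6pdx, at -57 to -49, of Gclm, at -134 to -126, and of Txnrd1, at -92 to -84, lie on the strand opposite to the gene. TGACTCA itself was present in a window of 6 of the 28 genes (21.4%), against 5.95% of all genes with a window.

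The transcript of the pathway's central regulator fell in both lines. Nfe2l2 (ENSMUSG00000015839, chr2:75675513-75704641, minus strand), which encodes NRF2, stood at 138 and 137 CPM in treated and 253 and 285 CPM in untreated knockout cells. Parental Nfe2l2 stood at 106 and 112 CPM with TGF-β and 236 and 308 CPM without it. The treated libraries lay below the untreated ones in each line, and the log2 fold change was -0.97 (SE 0.12, adjusted p = 4.85e-05) in knockout cells and -1.32 (SE 0.12, adjusted p = 4.5e-06) in parental cells. NRF2 itself is controlled mainly through its degradation, which RNA does not measure. Keap1 (ENSMUSG00000003308, chr9:21229730-21239361, minus strand), its adaptor for degradation, stood at 36.7 and 35.7 CPM in treated and 41.9 and 38.2 CPM in untreated knockout cells. Parental Keap1 stood at 32 and 34.9 CPM with TGF-β and 44.1 and 38.5 CPM without it. The treated libraries lay below the untreated ones, by little. In the knockout line Keap1 was not called, with a log2 fold change of -0.14 (95% interval -0.38 to 0.09, adjusted p = 0.324). In parental cells it was called lower, with -0.31 (SE 0.11, adjusted p = 0.0428). The parental call for Keap1 was lost without replicate 1 of untreated parental cells (-0.21, adjusted p = 0.234), without replicate 1 or 2 of treated parental cells (-0.24, adjusted p = 0.26; -0.37, adjusted p = 0.0838) and without either treated knockout library (-0.31 and -0.32, adjusted p = 0.0582 and 0.0536). It was also lost with upper quartile scaling (adjusted p = 0.0787), with no filter (0.0647) and with DESeq2 (0.0794), and 10.9% of its exonic length overlaps exons on the other strand. Bach1, the competing repressor, had log2 fold changes of 0.24 (95% interval -0.02 to 0.51, adjusted p = 0.133) in knockout and 0.04 (95% interval -0.23 to 0.30, adjusted p = 0.846) in parental cells; without replicate 2 of untreated knockout cells the knockout value was 0.44, adjusted p = 0.0118.

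**Figure D2:**
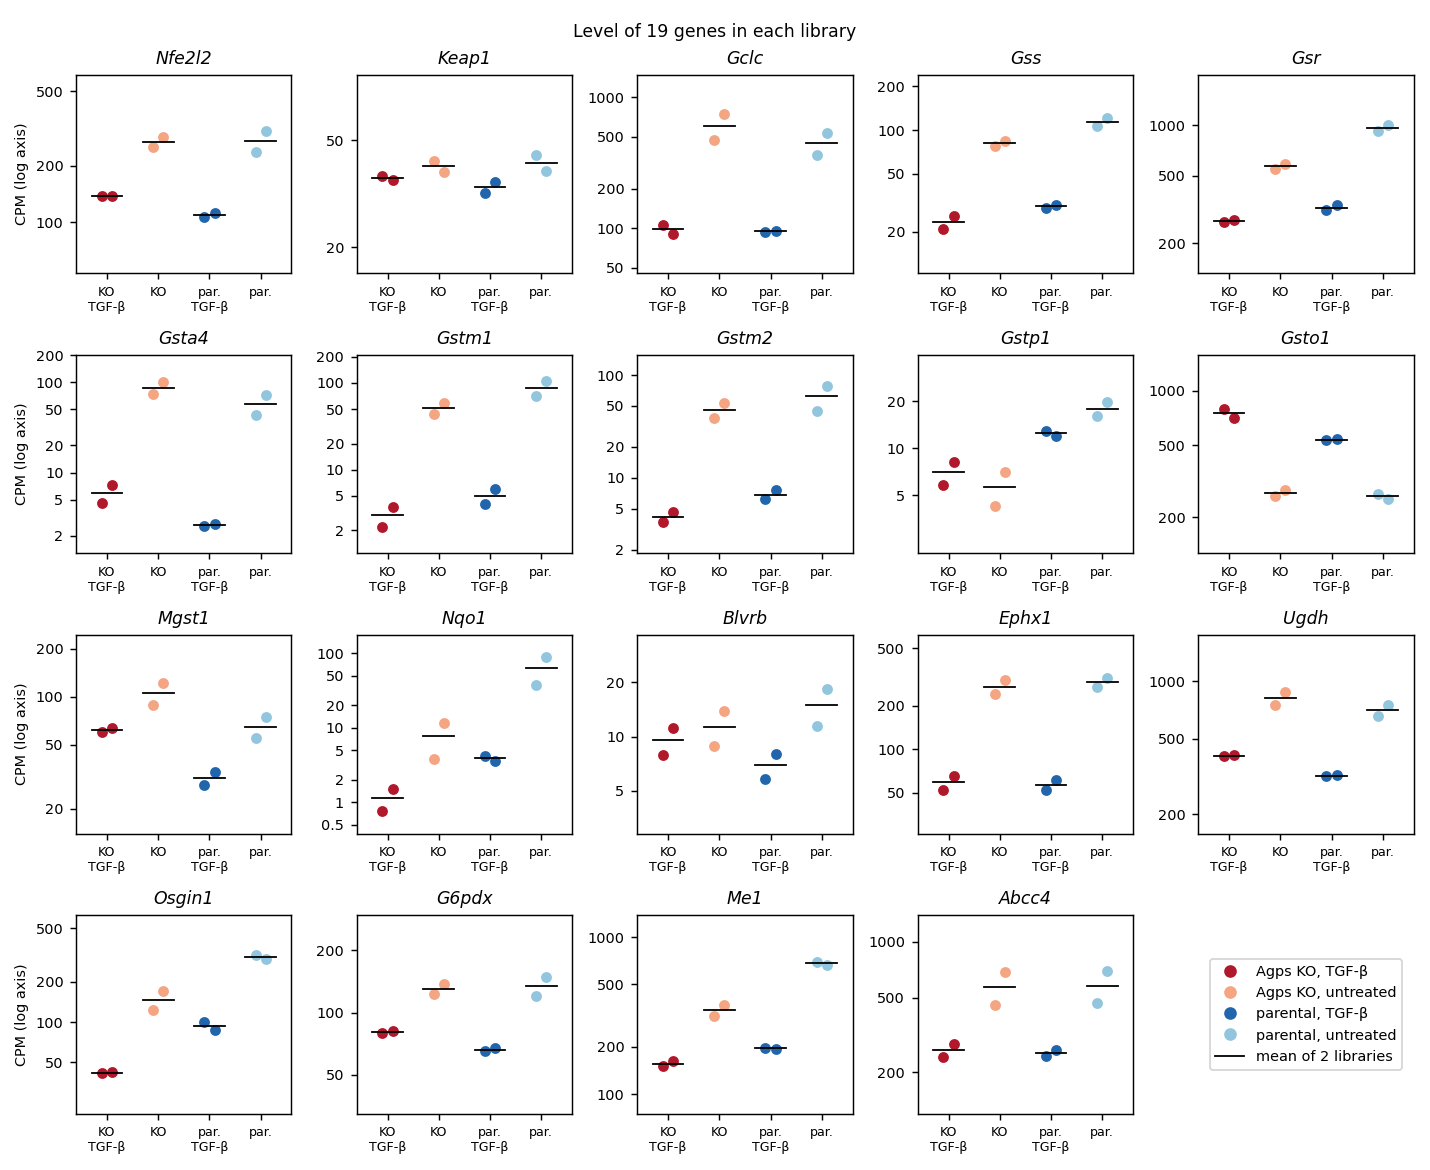
CPM after TMM scaling in each of the 8 libraries (points, log axis in every panel) for the 19 genes given with all library values, with treated and untreated knockout cells left of treated and untreated parental cells and lines at the mean of 2 libraries. Treated libraries lie below untreated ones of the same line for most genes, and above them for Gsto1.

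In the glutathione pathway, the catalytic subunit of the first enzyme, the second enzyme and the reductase fell strongly in both lines, while the modifier subunit was called in neither. Of these 4 genes 3 fell in each line, where 20.6% (knockout) and 21.2% (parental) of all tested genes were called lower. Gclc (ENSMUSG00000032350, chr9:77754535-77794485, plus strand), the catalytic subunit of glutamate-cysteine ligase, stood at 106 and 90.7 CPM in treated and 471 and 745 CPM in untreated knockout cells. Parental Gclc stood at 93.5 and 95.6 CPM with TGF-β and 361 and 531 CPM without it. Its treated libraries were all below its untreated ones, with log2 fold changes of -2.62 (SE 0.22, adjusted p = 1.79e-06) in knockout and -2.24 (SE 0.21, adjusted p = 6.7e-06) in parental cells. Gclm, the modifier subunit that raises the activity of the enzyme, stood at 202 and 195 CPM in treated and 170.0 and 207 CPM in untreated knockout cells. Parental Gclm stood at 237 and 232 CPM with TGF-β and 229 and 259 CPM without it. Its log2 fold change was 0.07 (95% interval -0.15 to 0.30, adjusted p = 0.619) in knockout cells and -0.06 (95% interval -0.29 to 0.17, adjusted p = 0.693) in parental cells, and neither interval reaches the change of Gclc. Per kilobase of exon, the ratio of Gclc to Gclm was 0.881 and 0.776 in treated knockout, 4.62 and 6.01 in untreated knockout, 0.659 and 0.688 in treated parental and 2.63 and 3.43 in untreated parental libraries. Gclc thus outweighed Gclm in all 4 untreated libraries and was below it in all 4 treated ones.

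**Figure D3:**
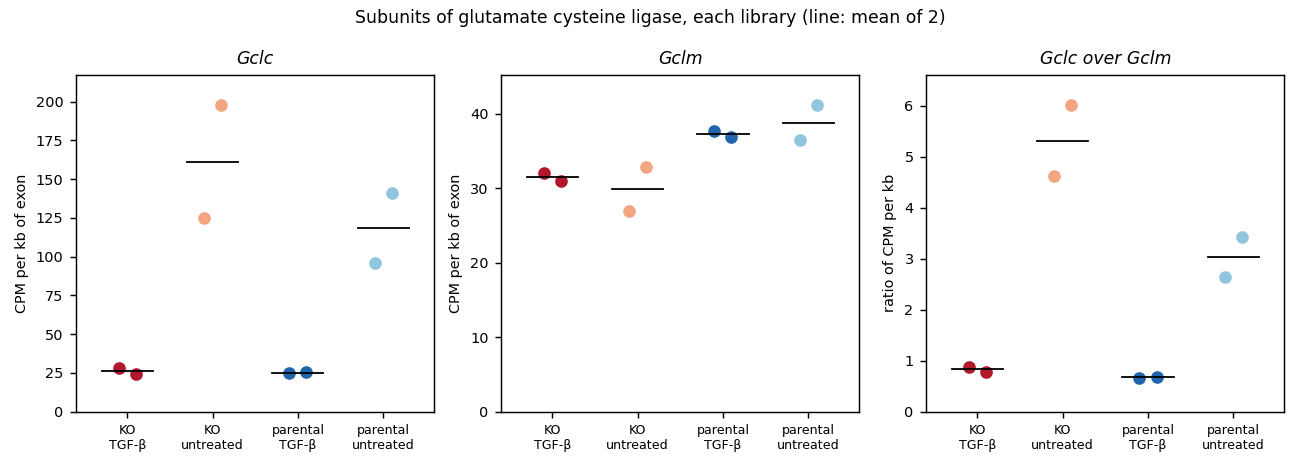
Level per kilobase of exon (CPM per kb) of the catalytic subunit gene Gclc and the modifier subunit gene Gclm, and their ratio, in each library, with lines at the mean of 2 libraries; all axes start at 0. The ratio lies between 0.659 and 0.881 in treated libraries and between 2.63 and 6.01 in untreated libraries.

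Gss (ENSMUSG00000027610, chr2:155563181-155592810, minus strand), glutathione synthetase, which adds glycine in the second step, stood at 20.8 and 25.7 CPM in treated and 77.9 and 84.0 CPM in untreated knockout cells. Parental Gss stood at 29.2 and 30.7 CPM with TGF-β and 107 and 120.3 CPM without it. It fell by a similar amount in each line, with a log2 fold change of -1.80 (SE 0.12, adjusted p = 3.02e-07) in knockout and -1.92 (SE 0.12, adjusted p = 1.8e-07) in parental cells. Gss shares 15.4% of its exonic length with exons on the other strand, and since the strandedness of counting is not given in the sources used here, part of its counts could belong to its antisense partners. Gsr (ENSMUSG00000031584, chr8:33652523-33698163, plus strand), glutathione reductase, which restores glutathione with NADPH, stood at 266 and 275 CPM in treated and 548 and 592 CPM in untreated knockout cells. Parental Gsr stood at 313 and 338 CPM with TGF-β and 917 and 994 CPM without it. In untreated parental cells it had the highest mean level per kilobase of the 33 genes, 347 CPM per kb. Txn1 was close, at 334 CPM per kb, and which of them was higher differed between the libraries. Gsr fell in both lines, with log2 fold changes of -1.07 (SE 0.09, adjusted p = 1.68e-06) in knockout and -1.55 (SE 0.09, adjusted p = 9.62e-08) in parental cells.

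The thioredoxin system moved less. Txn1, thioredoxin, and Txnrd1, its NADPH-dependent reductase, were called in neither line. Txn1 had log2 fold changes of 0.09 (95% interval -0.13 to 0.32, adjusted p = 0.511) in knockout and -0.05 (95% interval -0.28 to 0.17, adjusted p = 0.711) in parental cells, at levels between 320.1 and 397 CPM over the 8 libraries. Txnrd1, between 324 and 388 CPM, had log2 fold changes of 0.01 (95% interval -0.23 to 0.24, adjusted p = 0.961) in knockout and -0.08 (95% interval -0.32 to 0.15, adjusted p = 0.576) in parental cells. The peroxidase Prdx1 fell in both lines, with a log2 fold change of -0.47 (SE 0.09, adjusted p = 0.00142) in knockout and -0.83 (SE 0.09, adjusted p = 2.03e-05) in parental cells, and 8.81% of its 50-base stretches are shared with other loci. Srxn1, sulfiredoxin, which repairs overoxidised peroxiredoxins, fell in parental cells (-0.73, SE 0.13, adjusted p = 0.000794) and was at -0.23 (95% interval -0.51 to 0.06, adjusted p = 0.188) in knockout cells. Without replicate 1 of untreated knockout cells the knockout change of Srxn1 passed the test (-0.39, adjusted p = 0.0318). Prdx6, a peroxidase that uses glutathione, fell in parental cells by a small amount, -0.32 (SE 0.11, adjusted p = 0.0318), and was at -0.28 (95% interval -0.52 to -0.05, adjusted p = 0.0553) in knockout cells. The parental call of Prdx6 was lost without replicate 2 of untreated parental cells (-0.21, adjusted p = 0.206), without replicate 2 of treated parental cells (-0.23, adjusted p = 0.236) and with upper quartile scaling (adjusted p = 0.0531). Its knockout change passed the test without either untreated parental library (adjusted p = 0.0323 and 0.0332) and without replicate 1 of untreated knockout cells (-0.35, adjusted p = 0.0455).

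The glutathione transferases, which join glutathione to reactive compounds, held both the deepest falls and the one rise. Of 7 tested transferases 4 fell and 1 rose in knockout cells, and 5 fell and 1 rose in parental cells. Over all tested genes 20.6% fell and 20.9% rose in knockout cells, and 21.2% fell and 21.3% rose in parental cells. Gsta4 (ENSMUSG00000032348, chr9:78182774-78209349, plus strand), an alpha class enzyme that clears the lipid aldehyde hydroxynonenal, stood at 4.60 and 7.21 CPM in treated and 73.5 and 101 CPM in untreated knockout cells. Parental Gsta4 stood at 2.54 and 2.68 CPM with TGF-β and 43.1 and 71.9 CPM without it. Its log2 fold change was -3.89 (SE 0.27, adjusted p = 4.86e-07) in knockout and -4.46 (SE 0.31, adjusted p = 4.46e-07) in parental cells, and treated and untreated libraries did not overlap. Gstm1 (ENSMUSG00000058135, chr3:108012255-108017973, minus strand), of the mu class, stood at 2.17 and 3.77 CPM in treated and 43.5 and 58.1 CPM in untreated knockout cells. Parental Gstm1 stood at 3.97 and 5.96 CPM with TGF-β and 71.0 and 106 CPM without it. Its log2 fold change was -4.11 (SE 0.29, adjusted p = 4.73e-07) in knockout cells and -4.16 (SE 0.27, adjusted p = 2.83e-07) in parental cells, and treated and untreated libraries did not overlap. Gstm2 (ENSMUSG00000040562, chr3:107981702-107986453, minus strand), its neighbour, stood at 3.69 and 4.66 CPM in treated and 38.4 and 54.0 CPM in untreated knockout cells. Parental Gstm2 stood at 6.20 and 7.57 CPM with TGF-β and 45.2 and 78.8 CPM without it. For Gstm2 the log2 fold changes were -3.47 (SE 0.29, adjusted p = 1.7e-06) in knockout and -3.17 (SE 0.27, adjusted p = 2.52e-06) in parental cells. Genes of the mu class resemble each other: 18.9% of the 50-base stretches of Gstm1 and 5.65% of those of Gstm2 occur at other loci, so reads may be split between them. Of the 5 other mu class genes nearby, named here after their values were seen, Gstm5, Gstm3 and Gstm7 also fell, while Gstm4 and Gstm6 had at most 8 counts in a library and were not tested. Gstm5 had log2 fold changes of -0.51 (SE 0.16, adjusted p = 0.0207) in knockout and -0.60 (SE 0.16, adjusted p = 0.00957) in parental cells. Gstm3 had 1 and 1 counts in treated knockout cells, 30 and 44 counts in untreated knockout cells, 2 and 1 counts in treated parental cells and 24 and 56 counts in untreated parental cells. Gstm7 had 2 and 5 counts in treated knockout cells, 30 and 37 counts in untreated knockout cells, 4 and 4 counts in treated parental cells and 32 and 52 counts in untreated parental cells. Both were called lower in each line, but they passed the count filter through the untreated groups alone. Such genes had to differ, so these calls add no support.

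Gsto1 (ENSMUSG00000025068, chr19:47854970-47864790, plus strand), an omega class enzyme that reduces dehydroascorbate, rose in both lines. It stood at 790.3 and 706 CPM in treated and 263 and 284 CPM in untreated knockout cells. Parental Gsto1 stood at 533 and 539 CPM with TGF-β and 269.7 and 252 CPM without it. All 4 treated libraries lay above all 4 untreated ones, with log2 fold changes of 1.45 (SE 0.09, adjusted p = 1.74e-07) in knockout and 1.04 (SE 0.09, adjusted p = 2.89e-06) in parental cells. Per kilobase, Gsto1 had the highest mean of the 33 genes in treated knockout cells, at 369.8 CPM per kb. Txn1 was close there, at 345 CPM per kb, and which of them was higher differed between the libraries. In untreated parental cells Gsto1 was sixth, at 129 CPM per kb. Mgst1 (ENSMUSG00000008540, chr6:138140316-138156755, plus strand), a transferase of the endoplasmic reticulum and mitochondrial membranes, stood at 60.3 and 63.9 CPM in treated and 88.6 and 122 CPM in untreated knockout cells. Parental Mgst1 stood at 27.9 and 34.1 CPM with TGF-β and 54.9 and 75.2 CPM without it. It fell with log2 fold changes of -0.76 (SE 0.17, adjusted p = 0.00383) in knockout and -1.07 (SE 0.18, adjusted p = 0.000538) in parental cells. Mgst2, its relative, fell in parental cells (-0.94, SE 0.22, adjusted p = 0.0044) and was at -0.52 (95% interval -0.99 to -0.06, adjusted p = 0.0707) in knockout cells, a change that passed the test in 4 of the 8 fits with 1 library left out: without replicate 1 or 2 of untreated parental cells (adjusted p = 0.0264 and 0.0281), replicate 1 of untreated knockout cells (-0.67, adjusted p = 0.0419) or replicate 2 of treated knockout cells (-0.78, adjusted p = 0.0417). Gstp1 (ENSMUSG00000060803, chr19:4035407-4037985, minus strand), of the pi class, stood at 5.81 and 8.20 CPM in treated and 4.25 and 7.10 CPM in untreated knockout cells. Parental Gstp1 stood at 12.9 and 12.0 CPM with TGF-β and 16.0 and 19.9 CPM without it. With TGF-β its log2 fold change was 0.30 (95% interval -0.25 to 0.84, adjusted p = 0.378) in knockout and -0.52 (95% interval -1.01 to -0.04, adjusted p = 0.0783) in parental cells, neither of them called. The parental change of Gstp1 passed without replicate 1 of untreated parental cells (-0.68, adjusted p = 0.0451) or without either untreated knockout library (adjusted p = 0.0261 and 0.0263), and the knockout change without replicate 2 of untreated knockout cells (0.71, adjusted p = 0.0467). The copies Gstp2 and Gstp-ps share 33.7% of its 50-base stretches. Gstt1, of the theta class, had 0 and 0 counts in treated knockout cells, 1 and 0 counts in untreated knockout cells, 0 and 0 counts in treated parental cells and 0 and 1 counts in untreated parental cells, where 0 counts are compatible with up to 3 counts in a library by counting error alone.

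Among the other detoxification enzymes 4 of 6 fell in knockout and 5 of 6 in parental cells, where 20.6% and 21.2% of all tested genes fell. Nqo1 (ENSMUSG00000003849, chr8:107388225-107403206, minus strand), a quinone reductase and a commonly used readout of NRF2, stood at 0.758 and 1.5 CPM in treated and 3.77 and 11.7 CPM in untreated knockout cells. Parental Nqo1 stood at 4.19 and 3.57 CPM with TGF-β and 37.2 and 88.7 CPM without it. The treated libraries lay below the untreated ones in each line, and in both untreated pairs replicate 2 was well above replicate 1. The log2 fold change of Nqo1 was -2.80 (SE 0.66, adjusted p = 0.00521) in knockout cells and -4.01 (SE 0.50, adjusted p = 6e-05) in parental cells. Without replicate 2 of untreated knockout cells the knockout change was -1.75, adjusted p = 0.0433, and without replicate 1 of treated knockout cells it was -2.37, adjusted p = 0.0773. Ephx1 (ENSMUSG00000038776, chr1:180976210-181020904, minus strand), microsomal epoxide hydrolase, stood at 52.4 and 65.5 CPM in treated and 240.4 and 302 CPM in untreated knockout cells. Parental Ephx1 stood at 52.3 and 61.7 CPM with TGF-β and 270.0 and 309.6 CPM without it. It fell by nearly the same amount in each line, with log2 fold changes of -2.20 (SE 0.15, adjusted p = 2.78e-07) in knockout and -2.35 (SE 0.15, adjusted p = 1.94e-07) in parental cells. Osgin1 (ENSMUSG00000074063, chr8:119434124-119446256, plus strand), an oxidative stress induced growth inhibitor, stood at 41.5 and 42.2 CPM in treated and 123 and 170.1 CPM in untreated knockout cells. Parental Osgin1 stood at 101 and 87.2 CPM with TGF-β and 315 and 296 CPM without it. Its log2 fold changes were -1.81 (SE 0.14, adjusted p = 1.05e-06) in knockout and -1.70 (SE 0.14, adjusted p = 1.56e-06) in parental cells, so that its lowest levels were in treated knockout cells. Ugdh (ENSMUSG00000029201, chr5:65413221-65435949, minus strand), which makes the UDP-glucuronic acid used in glucuronidation and in hyaluronan synthesis, and whose promoter with a pair of matches is printed above, stood at 403 and 409 CPM in treated and 750.2 and 876 CPM in untreated knockout cells. Parental Ugdh stood at 317 and 321 CPM with TGF-β and 659.6 and 749 CPM without it. It fell with log2 fold changes of -1.0 (SE 0.10, adjusted p = 7.65e-06) in knockout and -1.14 (SE 0.10, adjusted p = 2.93e-06) in parental cells. Blvrb (ENSMUSG00000040466, chr7:27447978-27466144, plus strand), a biliverdin and flavin reductase, stood at 7.94 and 11.2 CPM in treated and 8.84 and 13.8 CPM in untreated knockout cells. Parental Blvrb stood at 5.78 and 8.04 CPM with TGF-β and 11.4 and 18.4 CPM without it. It fell in parental cells (-1.11, SE 0.29, adjusted p = 0.0088), and in knockout cells, where the groups overlapped, the log2 fold change was -0.25 (95% interval -0.86 to 0.36, adjusted p = 0.522). The parental call of Blvrb was lost without replicate 2 of untreated parental cells (-0.74, adjusted p = 0.0677) and without replicate 1 of treated parental cells (-0.89, adjusted p = 0.083). Cbr1, a carbonyl reductase, was near the floor with 5 to 34 counts a library and was called in neither line, although its knockout change was -1.89, adjusted p = 0.0152 without replicate 1 of untreated knockout cells.

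All 5 enzymes that supply NADPH fell in both lines, where 20.6% of all tested genes fell in knockout and 21.2% in parental cells. G6pdx (ENSMUSG00000031400, chrX:74409483-74429194, minus strand), glucose-6-phosphate dehydrogenase, which opens the pentose phosphate pathway, stood at 80.1 and 81.3 CPM in treated and 123 and 138 CPM in untreated knockout cells. Parental G6pdx stood at 65.0 and 67.6 CPM with TGF-β and 120.5 and 148 CPM without it. Its log2 fold change was -0.69 (SE 0.11, adjusted p = 0.000316) in knockout and -1.02 (SE 0.11, adjusted p = 1.71e-05) in parental cells. Part of its exons (13.6%) overlap exons on the other strand, and 16.9% of its 50-base stretches occur at other loci, including the copy G6pd2. Me1 (ENSMUSG00000032418, chr9:86581371-86695953, minus strand), cytosolic malic enzyme, whose match lies at the start site shown above, stood at 151 and 163 CPM in treated and 314 and 371 CPM in untreated knockout cells. Parental Me1 stood at 198 and 195 CPM with TGF-β and 692 and 669 CPM without it. It fell with log2 fold changes of -1.13 (SE 0.10, adjusted p = 2.22e-06) in knockout and -1.79 (SE 0.10, adjusted p = 6.41e-08) in parental cells, and 28.3% of its 50-base stretches occur at other loci, Gm7049 among them. The changes of the other 3 were smaller. Pgd, the second dehydrogenase of the pentose phosphate pathway, had log2 fold changes of -0.40 in knockout and -0.51 in parental cells (SE 0.09 each, adjusted p = 0.00441 and 0.000989). Tkt, transketolase, had -0.56 in knockout and -0.82 in parental cells (SE 0.12 each, adjusted p = 0.0022 and 0.000155). Taldo1, transaldolase, had -0.35 in knockout and -0.45 in parental cells (SE 0.09 each, adjusted p = 0.00931 and 0.00211), and its knockout call was lost without replicate 1 of treated knockout cells (-0.24, adjusted p = 0.0878).

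Of the export pumps, Abcc4 (ENSMUSG00000032849, chr14:118482692-118706219, minus strand), which carries organic anions and cyclic nucleotides out of the cell, fell in both lines. It stood at 240.4 and 284 CPM in treated and 458 and 684 CPM in untreated knockout cells. Parental Abcc4 stood at 244 and 263 CPM with TGF-β and 468 and 693 CPM without it. The treated libraries lay below the untreated ones, with log2 fold changes of -1.12 (SE 0.20, adjusted p = 0.000736) in knockout and -1.19 (SE 0.20, adjusted p = 0.000511) in parental cells. Abcc1, a pump for glutathione conjugates, was at -0.02 (95% interval -0.38 to 0.34, adjusted p = 0.946) in knockout cells and fell by a small amount in parental cells, -0.44 (SE 0.16, adjusted p = 0.048). That parental call was lost without replicate 2 of untreated parental cells (-0.20, adjusted p = 0.368), without replicate 1 or 2 of treated parental cells (-0.48 and -0.41, adjusted p = 0.122 and 0.183), without replicate 1 or 2 of treated knockout cells (-0.44 and -0.46, adjusted p = 0.0713 and 0.0589) and with upper quartile scaling (adjusted p = 0.065).

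Between the lines, without TGF-β, the quinone reductase Nqo1 and the transferase Gstp1 were the genes furthest below the parental level in knockout cells. Without TGF-β, 8 of the 32 genes were lower in knockout than in parental cells, where 8.94% of all tested genes were called lower, and 1 was higher, where 4.72% were called higher. The lower genes were Nqo1, Gstp1, Osgin1, Me1, Gstm1, Gsr, Gss and Gclm, and the higher one was Mgst1. The median log2 difference of the 32 genes was -0.12, and that of all tested genes was within 0.01 of 0. Nqo1 differed most, at 3.77 and 11.7 CPM in untreated knockout cells and 37.2 and 88.7 CPM in untreated parental cells, a log2 fold change of -3.01 (SE 0.46, adjusted p = 0.00121). Gstp1 was at 4.25 and 7.10 CPM in untreated knockout cells and 16.0 and 19.9 CPM in untreated parental cells, a log2 fold change of -1.65 (SE 0.23, adjusted p = 0.000765). Osgin1 had a log2 fold change of -1.06 (SE 0.13, adjusted p = 0.000377). That of Me1 was -0.99 (SE 0.09, adjusted p = 5.96e-05), and that of Gsr was -0.75 (SE 0.09, adjusted p = 0.000224). For each of these 5 genes the knockout libraries lay below the parental ones without overlap. Of the glutathione synthesis and recycling genes, Gss was lower as well, with -0.49 (SE 0.11, adjusted p = 0.0138), and so was Gclm, with -0.37 (SE 0.10, adjusted p = 0.0347). Gclc was not called, at 0.45 (95% interval -0.00 to 0.89, adjusted p = 0.192).

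Several of these untreated calls were lost when 1 library was left out. Gclm was not called in 6 of the 8 fits with 1 library left out, with -0.28 (adjusted p = 0.171) without replicate 2 of untreated parental cells, -0.24 (adjusted p = 0.218) without replicate 1 of untreated knockout cells, and -0.37 to -0.38 (adjusted p from 0.0552 to 0.0641) without any 1 of the 4 treated libraries. The treated libraries enter the untreated comparison through the shared spread, the count filter, the scaling and the adjustment over tested genes. Without any 1 of them the log2 fold change of Gclm stayed at -0.37 to -0.38. Gss was not called without replicate 2 of untreated parental cells (-0.40, adjusted p = 0.0723) or replicate 1 of untreated knockout cells (-0.44, adjusted p = 0.0706). Gstm1, at -0.80 (SE 0.22, adjusted p = 0.032), was not called without the same libraries (-0.48, adjusted p = 0.178; -0.60, adjusted p = 0.147) or with DESeq2 (adjusted p = 0.187). Gclc passed the test without either of them (0.75, adjusted p = 0.0302; 0.74, adjusted p = 0.0153), as did Gsta4 (1.02, adjusted p = 0.00582; 0.81, adjusted p = 0.0445), against 0.60 (SE 0.23, adjusted p = 0.109) with all libraries. Mgst1, higher at 0.70 (SE 0.17, adjusted p = 0.0193), was not called without replicate 1 of untreated parental cells (0.48, adjusted p = 0.113) or replicate 2 of untreated knockout cells (0.45, adjusted p = 0.12). Srxn1, at -0.41 (SE 0.13, adjusted p = 0.0571), was called lower without replicate 1 of untreated parental cells (-0.57, adjusted p = 0.0146) or replicate 2 of untreated knockout cells (-0.59, adjusted p = 0.0129), and Gstm2, at -0.42 (SE 0.23, adjusted p = 0.277), without replicate 1 of untreated parental cells (-0.77, adjusted p = 0.0149).

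Genes lying together on a chromosome shifted together between the lines, and some of the genes described here lie in such stretches. The median log2 difference of untreated knockout over parental cells was -0.46 over the tested genes of chromosome 8 and -0.28 over those of chromosome 3. On chromosome 8 lie Nqo1, Osgin1 and Gsr, and all 3 were lower in untreated knockout cells. On chromosome 3 lie Gclm, Gstm1, Gstm2 and Mgst2, of which 2 were lower. Of the 25 genes on other chromosomes 3 were lower (Gstp1, Me1 and Gss) and 1 was higher (Mgst1). Over all tested genes 8.94% were called lower and 4.72% higher, and these shares were not counted by chromosome. Among the 50 tested genes nearest to each, the median log2 difference was -0.82 around Nqo1, -0.89 around Osgin1, -0.35 around Gsr, -0.36 around Gclm and -0.35 around Gstm1. It was 0.12 around Me1, 0.03 around Gstp1 (44 neighbours), 0.00 around Gss and 0.03 around Mgst1. On chromosome 9 it was 0.24 around Gclc and 0.26 around Gsta4, which were not called with all libraries. With the chromosome median as an offset, Gclm (-0.10, adjusted p = 0.648), Gstm1 (-0.52, adjusted p = 0.174) and Gsr (-0.28, adjusted p = 0.0676) were no longer called, while Osgin1 was (-0.59, adjusted p = 0.0162). Whether the number of copies of these chromosomes differs between the lines was not tested.

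**Figure D4:**
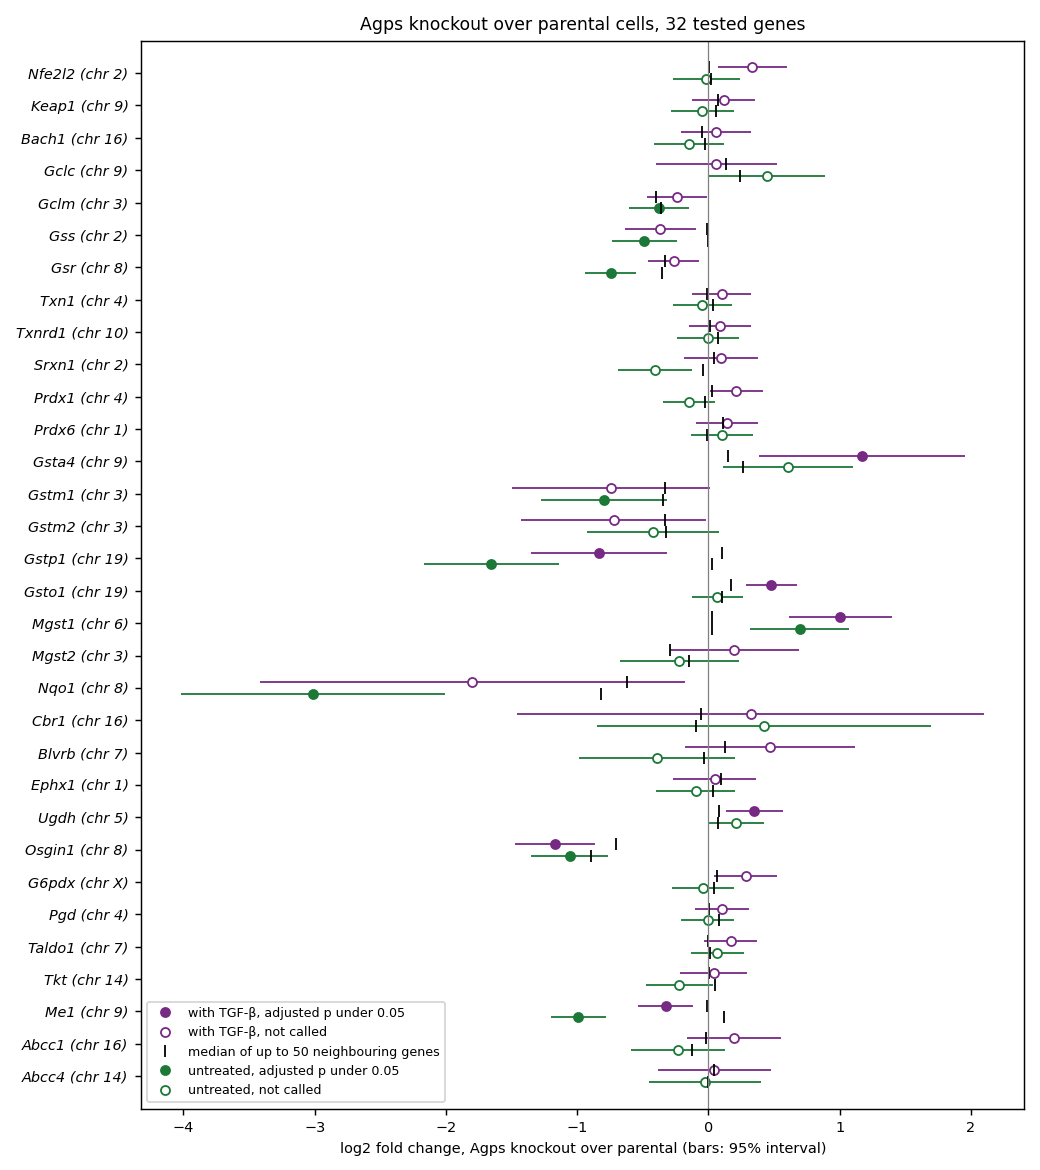
Fitted log2 fold change of Agps knockout over parental cells for each of the 32 tested genes, with TGF-β in purple above untreated in green; bars are 95% intervals, filled points passed an adjusted p of 0.05, and black ticks mark the median of up to 50 neighbouring genes. The ticks lie left of 0 for the genes of chromosomes 3 and 8, and Nqo1 lies furthest left without TGF-β, at -3.01.

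With TGF-β, 3 genes were lower in knockout than in parental cells, where 11.1% of all tested genes were called lower, and 4 were higher, where 6.82% were called higher. The lower genes were Osgin1, Gstp1 and Me1, and the higher ones were Gsta4, Mgst1, Gsto1 and Ugdh. Osgin1, Gstp1, Me1 and Mgst1 were called in the same direction with and without TGF-β, an overlap that was not counted over all tested genes. Osgin1 was at 41.5 and 42.2 CPM in treated knockout cells and 101 and 87.2 CPM in treated parental cells, a log2 fold change of -1.17 (SE 0.14, adjusted p = 0.000223), and -0.70, adjusted p = 0.00657 with the chromosome median as an offset. That offset was -0.47, while the median over the 50 tested genes nearest to Osgin1 was lower, at -0.70 with TGF-β. Mgst1 was at 60.3 and 63.9 CPM in treated knockout cells and 27.9 and 34.1 CPM in treated parental cells, a log2 fold change of 1.0 (SE 0.18, adjusted p = 0.00271), and Gsto1 was higher, at 0.48 (SE 0.09, adjusted p = 0.00335). The median log2 difference of the 32 genes was 0.10, and that of all tested genes was 0.01. Nqo1 had 15 and 27 counts in treated knockout cells, 78 and 253 counts in untreated knockout cells, 79 and 60 counts in treated parental cells and 705 and 1515 counts in untreated parental cells, and at this depth its log2 fold change with TGF-β was -1.80 (95% interval -3.42 to -0.18, adjusted p = 0.122). Nqo1 was called lower without any 1 of the 4 untreated libraries (adjusted p = 0.0322 to 0.0346).

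The other calls with TGF-β were lost when 1 treated library was left out, in fits where calls between the lines over all genes numbered 1188 to 1588, against 2618 with all libraries. Gsta4, higher at 1.17 (SE 0.36, adjusted p = 0.0433), was not called without any 1 of the 4 treated libraries or with chromosome medians as offsets (1.12, adjusted p = 0.0622). It was at 1.46 and 0.84 without replicates 1 and 2 of treated knockout cells (adjusted p = 0.053 and 0.28), and at 1.13 and 1.21 without those of treated parental cells (adjusted p = 0.179 and 0.143). Ugdh, higher at 0.35 (SE 0.10, adjusted p = 0.0304), was likewise not called without any 1 of them (adjusted p from 0.0997 to 0.174), or with those offsets (0.31, adjusted p = 0.0575), and its log2 fold change stayed at 0.34 to 0.36 without any 1 of them. Me1, lower at -0.33 (SE 0.10, adjusted p = 0.036), was not called without any 1 of them either (adjusted p from 0.0897 to 0.182), at log2 fold changes of -0.27 to -0.37. Gstp1, lower at -0.83 (SE 0.24, adjusted p = 0.031), was not called without replicate 1 or 2 of treated parental cells or replicate 1 of treated knockout cells (-0.78, -0.89 and -0.60, adjusted p = 0.155, 0.097 and 0.216). Conversely, Nfe2l2, at 0.34 (SE 0.12, adjusted p = 0.078), was called higher without either untreated parental library (adjusted p = 0.0214 and 0.0216), Gstm2, at -0.72 (SE 0.32, adjusted p = 0.155), lower without either of the same (adjusted p = 0.0367 and 0.0379), and Gss, at -0.37 (SE 0.12, adjusted p = 0.0614), lower without replicate 2 of treated knockout cells (-0.51, adjusted p = 0.0463).

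The TGF-β change itself was compared between the lines as a difference of log2 fold changes, knockout minus parental. A single gene, Me1, was called higher, where 1.25% of all tested genes were, and 0 were called lower, where 1.15% were. At an unadjusted p under 0.05 edgeR gave 6 genes above 0 and 0 below 0 (18.8% and 0%), where 7.28% of all tested genes were above and 6.60% below 0 at that threshold, and DESeq2 called 2, Me1 and Gsr, both above 0. For Me1 the difference was 0.66 (SE 0.13, adjusted p = 0.0264): it fell to 151 and 163 CPM in treated knockout cells, against 314 and 371 CPM in untreated knockout cells, and to 198 and 195 CPM in treated parental cells, against 692 and 669 CPM in untreated parental cells. Me1 was not called without replicate 1 or 2 of treated parental cells (0.67 and 0.66, adjusted p = 0.120 and 0.131), replicate 1 of untreated knockout cells (0.55, adjusted p = 0.0614) or replicate 1 or 2 of treated knockout cells (0.72 and 0.62, adjusted p = 0.0603 and 0.124). The size of the difference stayed within 0.55 to 0.72 in those fits, and calls of a difference over all genes numbered 120 to 172 without a treated library, against 352 with all. The fitted difference was above 0 for 28 of the 32 genes (87.5%), where it was above 0 for 51.0% of all tested genes, with a median of 0.18, against 0.01 for all tested genes. For Gsr it was 0.48 (95% interval 0.21 to 0.75, adjusted p = 0.0753), and 0.49, adjusted p = 0.0237 with DESeq2.

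The wider pathway was read from 110 further genes, of which 94 were tested. With TGF-β 36 of the 94 fell and 19 rose in knockout cells, and 46 fell and 15 rose in parental cells. In knockout cells 38.3% of the 94 fell and 20.2% rose, where 20.6% of all tested genes fell and 20.9% rose, so the share that rose was near that of all genes. In parental cells 48.9% fell and 16.0% rose, where 21.2% of all tested genes fell and 21.3% rose. The aldo-keto reductase gene Akr1c19 stood at 0.607 and 0.998 CPM in treated and 71.5 and 85.0 CPM in untreated knockout cells. Parental Akr1c19 stood at 1.85 and 1.85 CPM with TGF-β and 76.0 and 91.7 CPM without it. Its log2 fold changes were -6.61 (SE 0.21, adjusted p = 1.09e-09) in knockout and -5.50 (SE 0.19, adjusted p = 1.87e-09) in parental cells. Aldh3a1, an aldehyde dehydrogenase, stood at 0.455 and 0.499 CPM in treated and 9.08 and 9.37 CPM in untreated knockout cells. Parental Aldh3a1 stood at 0.371 and 0.596 CPM with TGF-β and 16.1 and 15.6 CPM without it. Its log2 fold changes were -4.26 in knockout and -5.03 in parental cells (adjusted p = 7.85e-08 and 2.12e-08). Aldh3a1 passed the count filter through the untreated groups alone, so it had to differ and its calls add no support. Both enzymes act on aldehydes or ketones, and both were lower in every treated library than in any untreated library of the same line. Cat, catalase, the hydrogen peroxide enzyme of peroxisomes, stood at 148 and 151 CPM in treated and 594 and 644 CPM in untreated knockout cells. Parental Cat stood at 137 and 152 CPM with TGF-β and 461 and 452 CPM without it. Its log2 fold changes were -2.05 (SE 0.09, adjusted p = 1.1e-08) in knockout and -1.66 (SE 0.09, adjusted p = 5.54e-08) in parental cells. Gpx8, a glutathione peroxidase family member of the endoplasmic reticulum, went the other way, with 361 and 302 counts in treated knockout cells, 0 and 3 counts in untreated knockout cells, 255 and 210 counts in treated parental cells and 4 and 2 counts in untreated parental cells, and was called higher in both lines (adjusted p = 2.41e-08 and 8.95e-08). Gpx8 passed the count filter through the treated groups alone, so it had to differ. Slc7a11, the cystine carrier that feeds glutathione synthesis, stood at 22.6 and 26.2 CPM in treated and 83.4 and 92.2 CPM in untreated knockout cells. Parental Slc7a11 stood at 21.0 and 19.2 CPM with TGF-β and 39.4 and 131 CPM without it. It fell with log2 fold changes of -1.85 (SE 0.39, adjusted p = 0.00259) in knockout and -2.08 (SE 0.40, adjusted p = 0.0014) in parental cells, and without replicate 2 of untreated parental cells, which held far more of it than replicate 1, the parental change was -0.97, adjusted p = 0.000101. Hmox1, heme oxygenase, which NRF2 activates and BACH1 represses, rose in both lines. It stood at 101 and 112 CPM in treated and 33.7 and 41.9 CPM in untreated knockout cells. Parental Hmox1 stood at 139 and 119 CPM with TGF-β and 62.9 and 69.4 CPM without it. Its log2 fold changes were 1.49 (SE 0.13, adjusted p = 2.12e-06) in knockout and 0.96 (SE 0.12, adjusted p = 7.21e-05) in parental cells.

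Between the lines 12 of the 94 further genes were lower and 10 higher in knockout cells without TGF-β, and 5 were lower and 15 higher with it. Without TGF-β 12.8% were lower and 10.6% higher, where 8.94% and 4.72% of all tested genes were. With TGF-β 5.32% were lower and 16.0% higher, where 11.1% and 6.82% of all tested genes were. The drug and bile pigment pump Abcc2 stood at 15.2 and 16.1 CPM in treated and 121 and 163 CPM in untreated knockout cells. Parental Abcc2 stood at 2.23 and 3.10 CPM with TGF-β and 37.0 and 47.8 CPM without it. It was higher in the knockout line, with log2 fold changes of 1.74 (SE 0.16, adjusted p = 5.18e-05) without and 2.56 (SE 0.23, adjusted p = 3.2e-05) with TGF-β. Abcg2, another pump, stood at 21.3 and 21.5 CPM in treated and 24.9 and 23.4 CPM in untreated knockout cells. Parental Abcg2 stood at 10.6 and 11.5 CPM with TGF-β and 9.49 and 9.20 CPM without it. For Abcg2 the log2 fold changes, knockout over parental, were 1.37 (SE 0.12, adjusted p = 3.79e-05) without and 0.95 (SE 0.12, adjusted p = 0.000345) with TGF-β. Akr1c14, an aldo-keto reductase, stood at 4.04 and 5.60 CPM in treated and 70.1 and 87.2 CPM in untreated knockout cells. Parental Akr1c14 stood at 1.27 and 1.43 CPM with TGF-β and 22.4 and 33.2 CPM without it. For Akr1c14 the log2 fold changes, knockout over parental, were 1.5 (SE 0.18, adjusted p = 0.00029) without and 1.83 (SE 0.32, adjusted p = 0.00237) with TGF-β. Hmox1, which lies on chromosome 8, was lower in knockout cells without TGF-β, with -0.81 (SE 0.13, adjusted p = 0.00146), and was not called with the chromosome median as an offset (-0.34, adjusted p = 0.122). For the difference of TGF-β changes, 3 of the 94 were called higher and 0 lower by edgeR, with 7 called by DESeq2. At an unadjusted p under 0.05, 17 were above and 4 below 0 (18.1% and 4.26%), where 7.28% and 6.60% of all tested genes were. Gsto2, the neighbour of Gsto1, stood at 27.8 and 21.0 CPM in treated and 3.33 and 3.94 CPM in untreated knockout cells. Parental Gsto2 stood at 3.50 and 2.74 CPM with TGF-β and 1.48 and 1.76 CPM without it. For Gsto2 the difference was 1.79 (SE 0.34, adjusted p = 0.0212). Ggt1, which breaks down glutathione outside the cell, stood at 15.5 and 17.5 CPM in treated and 16.1 and 18.1 CPM in untreated knockout cells. Parental Ggt1 stood at 2.28 and 3.34 CPM with TGF-β and 8.38 and 12.4 CPM without it. For Ggt1 it was 1.83 (SE 0.30, adjusted p = 0.0111). Sod3, the extracellular superoxide dismutase, stood at 94.0 and 102 CPM in treated and 28.8 and 33.2 CPM in untreated knockout cells. Parental Sod3 stood at 63.9 and 71.5 CPM with TGF-β and 39.8 and 42.9 CPM without it. For Sod3 it was 0.95 (SE 0.15, adjusted p = 0.00928). These calls were lost without replicate 2 of untreated parental, replicate 2 of treated parental or replicate 1 of treated knockout cells for Gsto2 (1.66, 1.63 and 1.57, adjusted p = 0.0602, 0.0824 and 0.0667). For Ggt1 they were lost without replicate 1 of treated parental cells (1.57, adjusted p = 0.0696) or replicate 2 of treated knockout cells (1.76, adjusted p = 0.0639), and for Sod3 without the same libraries (0.87, adjusted p = 0.0695, and 0.90, adjusted p = 0.0564).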

How the data were processed

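Per the labels' protocols, total RNA came from RNeasy extraction and went into KAPA mRNA HyperPrep libraries. The submitters' processing notes name STAR 2.7.1a, featureCounts 1.6.2, DESeq2 1.26.0 and the genome GRCm38 (mm10); no settings, annotation release or strandedness of counting were found in the sources used here. The authors deposited a raw count per gene for each of 8 libraries, 55450 identifiers of which 30946 had a count. They also deposited a table of normalized signal, in which each library's counts were divided by 1 number (checked to within 0.000561%); it was used for that check alone.

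Counts were fitted with edgeR 4.0.16 in R 4.3.3: filterByExpr with a minimum of 10 counts, TMM scaling, 4 group means over all 8 libraries with 4 residual degrees of freedom, the quasi-likelihood test, and Benjamini-Hochberg adjustment over 14641 genes, which hold 99.9% of counts. The SE is the log2 fold change over the root of F, and intervals are 95%. The script was tested on simulated data. The filter kept 32 of the 33 genes; a gene kept through the group where it is high had to differ. Library totals of 17007268 to 21311831 set the precision. Floors of 3 counts cover counting error only, while the intervals also hold the fitted spread between libraries. Replicates differed beyond sampling noise, by a chi-square of their counts against a split by library total. Its mean per gene was 4.57 in treated parental cells and 14.6 to 18.5 in the other groups. Levels of replicates correlated across genes at r from 0.991 to 0.994.

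Positions and exon lengths come from GENCODE M21 on GRCm38. Shared 50-base stretches and promoter motifs were counted with Python 3.11.15. Alternatives were RLE and upper quartile scaling, no filter, DESeq2 1.42.0, the replicate number as a block, chromosome medians as offsets and each library left out. All 8 library values are given for genes called in any comparison with an absolute log2 fold change of at least 1 and a mean log2 CPM of at least 1, and for Nfe2l2 and Keap1. Of the 110 further pathway genes, those with the 3 smallest adjusted p-values of each comparison at that level are named, with Hmox1, Slc7a11 and Agps. The 33 genes and the lists were chosen with earlier results of these data known.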

Additional observations from a re-analysis of the deposited data

Results flagged for a closer look

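For 5 genes the TGF-β change differed between the lines by the test of the difference itself, knockout minus parental, on the log2 scale. Among the 33 genes it was Me1, at 0.66 (SE 0.13, adjusted p = 0.0264). Among the further pathway genes they were Sod3, at 0.95 (SE 0.15, adjusted p = 0.00928), Ggt1, at 1.83 (SE 0.30, adjusted p = 0.0111), and Gsto2, at 1.79 (SE 0.34, adjusted p = 0.0212). Agps, the targeted gene, was at 0.73 (SE 0.15, adjusted p = 0.0332), with 43.9 and 35.6 CPM in treated knockout cells and 265 and 266 CPM in treated parental cells, against 32.9 and 29.3 CPM in untreated knockout cells and 357 and 329.8 CPM in untreated parental cells. The Agps difference was not called in 5 of the 8 fits with 1 library left out (0.57 to 0.74, adjusted p from 0.0617 to 0.145).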

How the results depend on the processing

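Of 63 calls on the 33 genes, RLE scaling kept 63, upper quartile scaling 60, no filter 62 and DESeq2 61, and leaving out 1 library kept 53 to 62; 0 reversed. Chromosome medians as offsets kept 11 of 16 knockout calls. Calls on the 33 genes with 1 library left out numbered 18 to 24 (TGF-β in knockout cells, 19 lower and 1 higher with all), 23 to 27 (TGF-β in parental cells), 8 to 10 (knockout against parental, untreated), 3 to 10 (with TGF-β, against 7) and 0 to 1 (difference, against 1). For the further genes they were 43 to 58, 52 to 62, 14 to 21 (against 22), 11 to 22 (against 20) and 1 to 7 (against 3). With no filter, the 33 genes gave 13 calls between the lines with TGF-β and 7 for the difference, and the further genes gave 18 for the difference; DESeq2 gave 2 and 7 for the difference. The cause was not tested.

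With the replicate number as a block, the 33 genes had 15 calls between the lines with TGF-β and 3 for the difference, and the further genes 11 for the difference. All 63 calls were kept and 16 gained. Gained were Prdx6 and Mgst2 (TGF-β in knockout cells), Gstp1 (TGF-β in parental cells), Srxn1, Gsta4 and Gstm2 (untreated, knockout against parental), Nfe2l2, Gss, Gsr, Gstm1, Gstm2, Nqo1 (-1.87, adjusted p = 0.0064), Blvrb and G6pdx (the same with TGF-β), and Gsr (0.48, adjusted p = 0.0217) and Blvrb (0.86, adjusted p = 0.0255) for the difference. Deviations of same-numbered libraries correlated positively in all 6 pairs of groups, at 0.0218 to 0.308 and at 0.149 between the knockout groups. Not every pair was over 0.1 and the labels give the numbers no meaning, so whether they mark a shared culture or day is not known, and the fit without the block is reported.

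Slc7a11 changed sign with single libraries. Knockout over parental without TGF-β, it was at 0.05 with all libraries, -0.58 (adjusted p = 0.00966) without replicate 1 and 1.15 (adjusted p = 0.000146) without replicate 2 of untreated parental cells. The difference of TGF-β changes was 0.23 with all, 0.86 (adjusted p = 0.0216) and -0.88 (adjusted p = 0.0215) without the same libraries. With 2 libraries a group, differences of the size of a library's deviation cannot be resolved, and for genes at a few counts, such as Cbr1 and Gstt1, depth is the limit.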
